A study of Mus musculus with 6 samples.

Results

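The transcription factor genes of the cardiac lineage were examined, taken as the 10 rows of a 57010-gene count table whose gene name was Gata4, Gata6, Nkx2-5, Tbx5, Tbx20, Mef2a, Mef2c, Hand1, Hand2 or Isl1. Of the 10 genes, 8 held enough counts to be tested, and Hand1 and Isl1 did not. The libraries were 6 RNA-seq libraries of primary neonatal mouse cardiomyocytes (NMCMs), which per the study's methods were prepared from C57BL/6 mice of 1 to 3 days of age and separated from cardiac fibroblasts by differential adhesion. All 6 were made under hypoxia (HO). The comparison asked what β-sitosterol (β-SITO), a plant sterol, changed in hypoxic NMCMs. Libraries V1 to V3 were HO + Vehicle and libraries T4 to T6 were HO + β-SITO, 3 of each. Neither the β-SITO dose nor the duration of hypoxia is given for these libraries in the sources used here, and no normoxic library was analysed here. Nothing states whether the libraries came from separate cultures, so p-values measure only the spread between these libraries, which may be technical. The library names of the HO + β-SITO group carry a suffix letter that those of the HO + Vehicle group lack, so treatment and any separate preparation cannot be told apart.

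These factors form the core network that specifies and maintains heart muscle. GATA zinc finger proteins, the homeobox factor NKX2-5, T-box factors, MEF2 proteins of the MADS-box family and HAND proteins of the basic helix-loop-helix (bHLH) family bind one another and the regulatory DNA of sarcomere, ion channel and natriuretic peptide genes. ISL1, a LIM-homeodomain protein, marks progenitors of the second heart field and is switched off in most maturing cardiomyocytes. Several members are not restricted to cardiomyocytes: Gata4, Gata6, Tbx20 and Hand2 are also expressed in cardiac fibroblasts, and Mef2c and Tbx20 in endothelial or endocardial cells.

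Total counts ranged from 16694734 to 18460522 per library, and 14799 genes were tested. Values are CPM, the counts of a gene relative to the total of its library after scaling by trimmed mean of M-values (TMM) factors. These factors were 0.946 to 0.957 for V1 to V3 and 1.05 to 1.06 for T4 to T6. A fold change was fitted with the quasi-likelihood test of edgeR, its p adjusted over all tested genes by the Benjamini-Hochberg method, and a gene was called when the adjusted p was under 0.05 and the change more than 2-fold. Library T4 stood apart before any result of the members. The summed CPM of 10 cardiomyocyte markers, of which Myh6 was the largest, was 0.82 of the HO + Vehicle mean in T4. It was 1.30 in T5 and in T6. T4 was the lowest of the HO + β-SITO libraries for 10 of the 10 markers. T4 was also the lowest of them for 8 of the 8 tested members, against 36.5% of all tested genes. Fold changes of the tested members are therefore given with and without T4.

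Of the members, 1 passed both thresholds. Mef2c rose 2.66-fold in HO + β-SITO, so 1 of 8 tested members was called higher and 0 were called lower, where 12.8% of all tested genes were called higher and 10.1% lower. At an adjusted p under 0.05 alone, 6 members were higher (Gata4, Gata6, Tbx5, Tbx20, Mef2a and Mef2c) and 0 were lower, against a background of 33.0% of genes higher and 33.8% lower. The 3 HO + β-SITO libraries lay above all 3 HO + Vehicle libraries for 5 members (Gata6, Tbx5, Tbx20, Mef2a and Mef2c), as they did for 34.8% of all tested genes. Without T4, 1 member was called higher (background 13.2%) and 6 were higher at an adjusted p under 0.05 alone (background 32.7%). The median log2 fold change was 0.23 over the 8 tested members and -0.0073 over all tested genes.

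**Figure D1:**
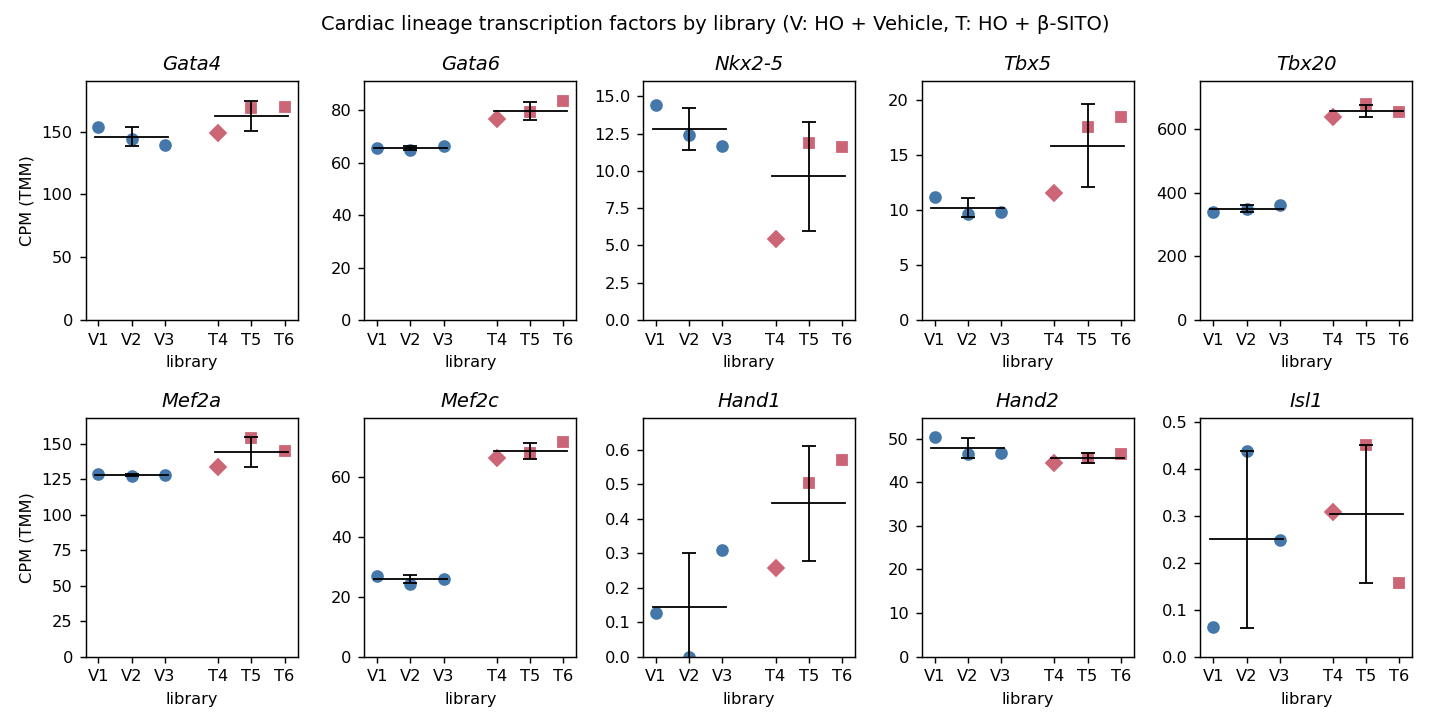
CPM (TMM) of each of the 10 members, vertical axis from 0, in each library; circles are HO + Vehicle (V1 to V3), squares HO + β-SITO (T5, T6) and the diamond T4, with the group mean and SD as lines (n = 3). Mef2c and Tbx20 show the 2 groups apart with little spread, while T4 lies low for Nkx2-5 and Tbx5, and Hand1 and Isl1 stay under 1 CPM.

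**Figure D2:**
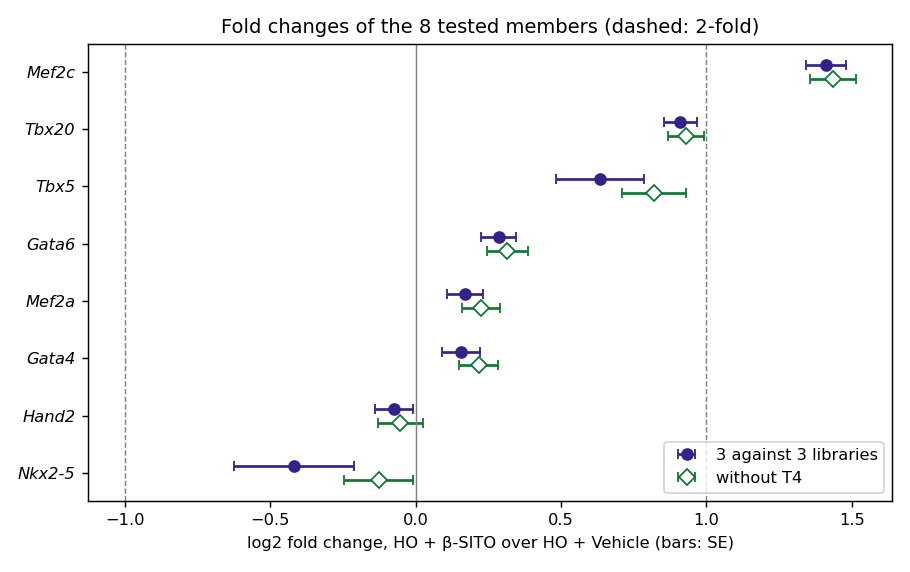
Log2 fold change of HO + β-SITO over HO + Vehicle with its standard error (SE) for the 8 tested members; filled circles use 3 against 3 libraries and open diamonds leave out T4. Mef2c at 1.41 lies beyond the dashed 2-fold line, Tbx20 at 0.91 lies just inside it, and Nkx2-5 moves from -0.42 to -0.13 without T4.

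Upstream sequences were read as a reference for the members. RefSeq windows of 250 bases before a transcription start (GRCm38.p6) were used for 6 of the 10 members, 8 windows in all, 3 of them for Mef2c. Windows on chromosome 18, where Gata6 lies, were left out, so Gata6 was not searched. Gata4, Tbx5 and Hand1 had no window and were not searched either. Each window was searched on both strands for 5 motifs: a GATA site (AGATAA, present in 10% of all 32851 mouse windows of the same length), an NK2 homeobox site (AAGTG, 40.7%), a T-box half-site (AGGTGT, 11.8%), an E-box (CANNTG, 66.2%), the kind of site bHLH proteins bind, and the MEF2 consensus (2.9%). A match is a description of the letters and not a binding site. Positions are counted back from the transcription start, and capitals in the sequences mark the matches.

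The GATA factors are zinc finger proteins that open chromatin at cardiac genes. Gata4 (chromosome 14, 63436371 to 63509141, minus strand, ENSMUSG00000021944, GRCm39) is required for cardiomyocyte proliferation and the hypertrophic response. Its CPM was 154, 144 and 139 in V1 to V3 and 149, 169 and 170 in T4 to T6 (2440, 2304 and 2247 counts against 2900, 3007 and 3264). T4 lay within the range of the HO + Vehicle libraries and T5 and T6 lay above it, so the groups overlapped. The means were 146 ± 7.53 and 162 ± 11.8 (SD, n = 3), the log2 fold change was 0.16 (SE 0.0659) and the adjusted p of edgeR's quasi-likelihood test was 0.0479. Without T4 the log2 fold change was 0.22 (adjusted p = 0.00685), and leaving out V2, V3, T5 or T6 ended the passing of the threshold, with an adjusted p of up to 0.144.

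Gata6 (chromosome 18, 11052064 to 11085635, plus strand, ENSMUSG00000005836), a paralog with overlapping roles in heart and endoderm, was measured at 65.4, 64.7 and 66.3 CPM in V1 to V3 and at 76.7, 79.3 and 83.5 CPM in T4 to T6. Every HO + β-SITO library exceeded every HO + Vehicle library. Mean levels were 65.5 ± 0.812 and 79.8 ± 3.39 CPM (SD, n = 3). The log2 fold change was 0.29 (SE 0.0595, edgeR adjusted p = 0.000574), and 0.31 without T4. The long noncoding RNA Gata6os, on the opposite strand, overlaps Gata6 over 873 bases. It was measured at 4.59 ± 0.454 CPM in HO + Vehicle and 6.71 ± 0.653 CPM in HO + β-SITO (log2 fold change 0.55, edgeR adjusted p = 0.00384). Whether the counting used strand is not stated, so reads from genes overlapping on opposite strands cannot be told apart.

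Within a library, the ratio of Gata4 to Gata6 counts does not depend on scaling between libraries. It was 2.35, 2.23 and 2.10 in V1 to V3 and 1.94, 2.13 and 2.03 in T4 to T6. The ranges overlapped, and the mean log2 ratio differed by -0.13 (two-sided exact permutation test, p = 0.2, where 3 against 3 libraries cannot go below 0.1).

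Nkx2-5 (chromosome 17, 27057638 to 27063983, minus strand, ENSMUSG00000015579) encodes the homeobox factor that is among the earliest markers of cardiac progenitors and remains on in cardiomyocytes. Its CPM was 14.4, 12.4 and 11.6 in V1 to V3 and 5.44, 11.9 and 11.6 in T4 to T6 (228, 198 and 188 counts against 106, 211 and 223). T4 alone lay below the HO + Vehicle libraries clearly, and T5 and T6 were close to V3. Mean levels were 12.8 ± 1.42 and 9.63 ± 3.63 CPM (SD, n = 3), with a log2 fold change of -0.42 (SE 0.206, edgeR adjusted p = 0.0871). Without T4 it was -0.13 (adjusted p = 0.357). Leaving out T5 gave -0.56 (adjusted p = 0.0346) and leaving out T6 gave -0.57 (adjusted p = 0.0239), so the value depends on which HO + β-SITO library is present. Isl1 (chromosome 13, 116434817 to 116446225, minus strand, ENSMUSG00000042258) was near the detection limit, with 1, 7 and 4 counts in V1 to V3 and 6, 8 and 3 in T4 to T6. It did not pass the filter on low counts, and its groups overlapped.

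Among the T-box factors, Tbx20 was the member with the highest CPM and the second largest change. TBX20 represses and activates cardiac genes and is needed for cardiomyocyte growth and for the endocardium. Tbx20 (chromosome 9, 24629434 to 24685599, minus strand, ENSMUSG00000031965) was measured at 339, 348 and 361 CPM in V1 to V3 and at 639, 678 and 652 CPM in T4 to T6. The groups were far apart relative to their spread, at 349 ± 11.03 and 656 ± 19.9 CPM (SD, n = 3). The log2 fold change was 0.91 (SE 0.0573, edgeR adjusted p = 1.43e-09), which is 1.88-fold and so short of the 2-fold threshold, and 0.93 without T4. Scaling without TMM, by library size only or by the upper quartile, brought it to 1.06 and 1.05 and over the threshold. Under both of these scalings the median log2 fold change of all genes was 0.14. The noncoding gene Gm29824 begins 2163 bases from Tbx20 on the opposite strand. Its counts were 10, 13 and 11 in V1 to V3 and 42, 33 and 29 in T4 to T6, and it was called higher (log2 fold change 1.37, edgeR adjusted p = 0.000534). The window before the Tbx20 start (chr9:24774304-24774553, minus strand, GRCm38.p6) is shown because Tbx20 was the second most changed member. It held no match to the 5 motifs and a GC content of 68.8%.
Tbx20: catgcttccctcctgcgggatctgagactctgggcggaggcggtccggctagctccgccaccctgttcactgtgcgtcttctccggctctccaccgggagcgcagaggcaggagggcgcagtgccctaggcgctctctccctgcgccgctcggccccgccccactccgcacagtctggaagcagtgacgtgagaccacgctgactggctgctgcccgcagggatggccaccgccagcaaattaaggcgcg

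Tbx5 (chromosome 5, 119970733 to 120023284, plus strand, ENSMUSG00000018263) patterns the atria, the left ventricle and the conduction system. It was measured at 11.2, 9.64 and 9.78 CPM in V1 to V3 and at 11.6, 17.5 and 18.5 CPM in T4 to T6 (177, 154 and 158 counts against 225, 312 and 355). T4 lay only slightly above V1, whereas T5 and T6 lay well above. The means were 10.2 ± 0.843 and 15.8 ± 3.75 CPM (SD, n = 3), the log2 fold change was 0.63 (SE 0.151, edgeR adjusted p = 0.00169), and without T4 it was 0.82. The nearest other gene, the noncoding Gm43050 at 632 bases, had a log2 fold change of -0.25 (edgeR adjusted p = 0.47). The ratio of Tbx20 to Tbx5 counts was 30.4, 36.1 and 36.9 in V1 to V3 and 55.3, 38.7 and 35.3 in T4 to T6. Only T4 stood apart, and the groups did not differ detectably (log2 difference 0.30, two-sided exact permutation test, p = 0.3). Without T4 the log2 difference was 0.11.

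MEF2 proteins switch on sarcomere and metabolic genes in differentiating muscle, in partnership with GATA and T-box factors, and class II histone deacetylases hold them silent. Mef2c (chromosome 13, 83652153 to 83815199, plus strand, ENSMUSG00000005583) is the earliest of them in the heart and is also used by endothelial cells. Its CPM was 27.1, 24.5 and 26.1 in V1 to V3 and 66.5, 68.2 and 71.7 in T4 to T6 (430, 391 and 421 counts against 1296, 1215 and 1379). T4 was not set apart here, and the lowest HO + β-SITO library was above the highest HO + Vehicle library by a wide margin. The means were 25.9 ± 1.33 and 68.8 ± 2.64 CPM (SD, n = 3), with a log2 fold change of 1.41 (SE 0.069, edgeR adjusted p = 6.35e-11), and of 1.44 without T4. Leaving out 1 library at a time kept it between 1.37 and 1.47. RefSeq gives 3 starts for Mef2c, and 2 windows with no exon of Mef2c in them are shown because Mef2c was the only member called, the first at chr13:83503784-83504033, plus strand and the third at chr13:83573357-83573606, plus strand (GRCm38.p6). The first holds an NK2 match from -233 to -229 within an E-box from -234 to -229, and another E-box from -100 to -95. The third holds an E-box from -245 to -240 and an NK2 match from -58 to -54. The second window, which overlaps an exon of Mef2c and is not shown, holds a T-box half-site match from -216 to -211 and an NK2 match from -63 to -59. No MEF2 consensus was matched in any of the 8 windows of members.
Mef2c start 1: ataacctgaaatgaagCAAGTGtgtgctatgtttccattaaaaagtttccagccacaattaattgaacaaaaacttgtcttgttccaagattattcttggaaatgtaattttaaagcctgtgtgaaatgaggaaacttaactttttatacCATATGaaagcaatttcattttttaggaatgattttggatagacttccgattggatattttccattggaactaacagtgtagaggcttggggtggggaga
Mef2c start 3: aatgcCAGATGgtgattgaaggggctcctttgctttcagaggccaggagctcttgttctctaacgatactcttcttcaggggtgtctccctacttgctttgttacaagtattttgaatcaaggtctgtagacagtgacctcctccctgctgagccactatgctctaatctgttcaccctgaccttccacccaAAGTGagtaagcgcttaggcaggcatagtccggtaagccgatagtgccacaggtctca

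Mef2a (chromosome 7, 66880911 to 67022606, minus strand, ENSMUSG00000030557), the paralog that prevails in the postnatal heart, was measured at 129, 127 and 128 CPM in V1 to V3 and at 133, 154 and 145 CPM in T4 to T6. The HO + Vehicle libraries were nearly equal and T4 lay just above them. Mean levels were 128 ± 0.847 and 144 ± 10.4 CPM (SD, n = 3), with a log2 fold change of 0.17 (SE 0.0621, edgeR adjusted p = 0.0242) and of 0.22 without T4. Leaving out T5 or T6 took the adjusted p to 0.0786 and 0.0509. The protein-coding gene Lysmd4 overlaps Mef2a on the opposite strand over 76168 bases of gene span and was measured at 17.7 ± 0.488 and 23.7 ± 0.521 CPM (log2 fold change 0.42, edgeR adjusted p = 0.000216). The ratio of Mef2a to Mef2c counts was 4.73, 5.18 and 4.92 in V1 to V3 and 2.0, 2.26 and 2.02 in T4 to T6. The groups did not overlap, with a log2 difference of -1.24 (two-sided exact permutation test, p = 0.1, the smallest that 3 against 3 libraries can give), and the difference stayed between -1.30 and -1.21 with any 1 library left out.

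**Figure D3:**
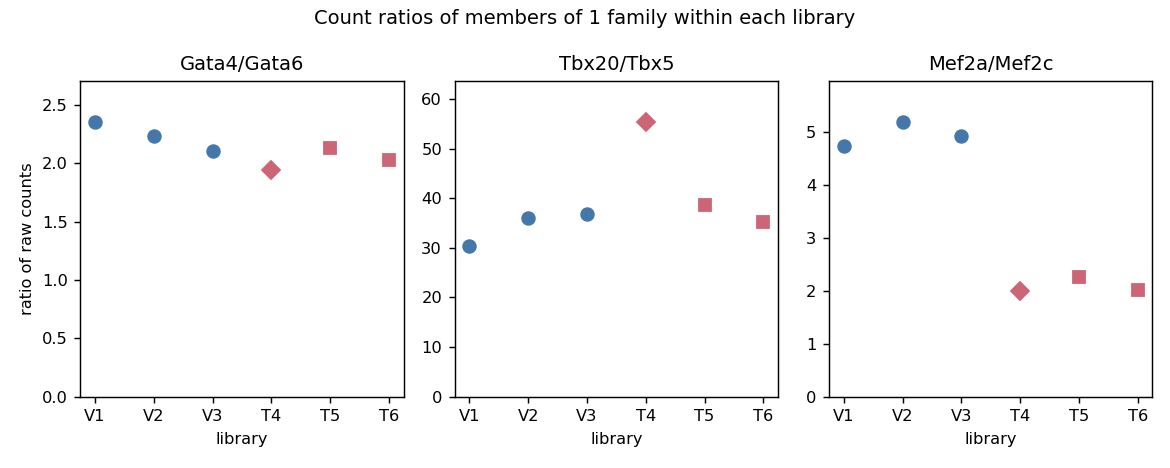
Ratio of raw counts of the 2 members of a family within each library, vertical axes from 0; circles are V1 to V3, squares T5 and T6, the diamond T4. The Mef2a/Mef2c ratio lies between 4.73 and 5.18 in HO + Vehicle and between 2.0 and 2.26 in HO + β-SITO, while T4 alone stands apart for Tbx20/Tbx5.

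HAND proteins are bHLH factors that act in the ventricles and outflow tract. Hand2 (chromosome 8, 57774018 to 57777668, plus strand, ENSMUSG00000038193) was measured at 50.4, 46.4 and 46.7 CPM in V1 to V3 and at 44.3, 45.6 and 46.5 CPM in T4 to T6. The groups touched, since T6 lay above V2. The means were 47.8 ± 2.24 and 45.5 ± 1.12 CPM (SD, n = 3), with a log2 fold change of -0.073 (SE 0.0653, edgeR adjusted p = 0.34), and of -0.053 without T4 (adjusted p = 0.561). It turned to 0.075 and 0.071 under the other 2 scalings named for Tbx20. The antisense RNA Hand2os1 overlaps Hand2 over 3251 bases of gene span. It held 169, 184 and 141 counts in V1 to V3 and 297, 332 and 370 in T4 to T6 (log2 fold change 0.78, edgeR adjusted p = 3.61e-05, under 2-fold). Hand2 itself had no detectable change and a sign that depended on the scaling, and the difference between the 2 genes was not tested. As for Gata6, reads from the overlap cannot be told apart, because the strand setting is not stated. The Hand2 window (chr8:57320733-57320982, plus strand, GRCm38.p6) is shown because it also holds exons of Hand2os1 transcripts on the other strand. It has a GATA match from -172 to -167, an NK2 match from -235 to -231 within an E-box from -235 to -230, and another E-box from -246 to -241.
Hand2: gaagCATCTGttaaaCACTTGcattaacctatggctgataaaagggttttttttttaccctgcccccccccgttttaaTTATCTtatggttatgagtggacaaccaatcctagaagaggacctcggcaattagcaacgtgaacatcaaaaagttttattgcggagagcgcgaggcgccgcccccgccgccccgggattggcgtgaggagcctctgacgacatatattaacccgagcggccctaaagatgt

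Hand1 (chromosome 11, 57719531 to 57723644, minus strand, ENSMUSG00000037335), which marks the left ventricle, held 2, 0 and 5 counts in V1 to V3 and 5, 9 and 11 in T4 to T6. The groups overlapped at 5 counts. A total of 3 counts, the limit that a count of 0 allows, correspond to 0.154 to 0.189 CPM. Hand1 reached 0.572 CPM in T6 and Isl1 0.449 CPM in T5, so both were low but above this floor in some libraries. Hand1 and Isl1 did not pass the filter on low counts, so the main fit gives them no fold change. With no filter on low counts, their log2 fold changes were 1.56 and 0.27 (edgeR adjusted p = 0.0554 and 0.774). Intervals and floors cover counting error only.

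Levels of different genes were compared as CPM per kilobase of merged exons, with GENCODE vM21 lengths. In HO + Vehicle the order was Gata4 (37.3 ± 1.93), Tbx20 (29.1 ± 0.92), Hand2 (20.4 ± 0.953), Gata6 (10.1 ± 0.125), Mef2a (8.71 ± 0.0577), Nkx2-5 (7.45 ± 0.825), Tbx5 (2.18 ± 0.18) and Mef2c (1.65 ± 0.0847 CPM per kilobase, SD, n = 3). Neighbours in this order did not overlap between libraries, and Hand1 and Isl1 followed with overlapping values. In HO + β-SITO, Tbx20 (54.7 ± 1.65) stood above Gata4 (41.6 ± 3.02) and Mef2c (4.38 ± 0.168) above Tbx5 (3.39 ± 0.802 CPM per kilobase), with neither pair overlapping. Nkx2-5 ranged from 3.17 in T4 to 6.89 and overlapped Mef2c. The order depends on the length used: by the longest coding transcript, Mef2c (4.13) already exceeded Tbx5 (2.59) in HO + Vehicle, and Mef2a (23.1) exceeded Hand2 (20.4) and Gata6 (20.3 CPM per kilobase).

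The cell types behind these levels were read from marker lists. Fibroblast markers summed to 30280 to 31580 CPM in HO + Vehicle and 45670 to 46820 CPM in HO + β-SITO, against 4316 to 5222 and 3866 to 6150 CPM for the cardiomyocyte markers. Most of the fibroblast sum came from the collagens Col1a1, Col1a2 and Col3a1, and the means of the other 7 fibroblast markers summed to 4611 CPM in HO + Vehicle and 5130 CPM in HO + β-SITO, near the 4713 and 5380 CPM of the cardiomyocyte markers. Myh6 was the largest part of the cardiomyocyte sum, at 1970 CPM in HO + Vehicle and 3258 CPM in the mean of T5 and T6. Tnnt2, the next largest at 1235 CPM in HO + Vehicle, was lower there, at 975 CPM. At an adjusted p under 0.05 alone in edgeR, 3 of the 10 cardiomyocyte markers were higher and 2 lower. The shares of all tested genes were 33.0% and 33.8%. Transcripts of both cell types were thus present in cultures labelled cardiomyocytes. No marker of these lists was at 0 in all libraries. Of all tested genes, 12.8% were called higher and 10.1% lower, and 13.2% were called higher without T4. Of the 10 markers of each type, those called higher and lower were 1 and 0 for cardiomyocytes (Myh7 higher), 1 and 0 for fibroblasts (Fbln1), 9 and 1 for endothelium (Vwf, Emcn, Robo4, Kdr and Tie1 among those higher, Flt1 lower), 7 and 1 for macrophages (Mrc1, C1qa, Cd68, Csf1r and C1qb among those higher, Fcgr1 lower), 6 and 0 for smooth muscle and pericytes (Kcnj8, Myh11, Smtn, Abcc9 and Rgs5 among those higher), and 4 and 2 for epicardium (Bnc1, Upk1b and Wt1 higher, Aldh1a2 and Krt18 lower). Without T4, those called higher were 2 for cardiomyocytes and 7 for smooth muscle and pericytes, and the other 4 lists had as many called higher as with it. The summed endothelial markers were 684 to 805 CPM in HO + Vehicle and 956 to 1006 in HO + β-SITO. Flt1 dominated this sum: without it the means of the other 9 markers summed to 218 and 877 CPM, and the median log2 fold change of the 10 endothelial markers was 2.02. The macrophage markers summed to 1200 to 1320 and 2615 to 3212 CPM, with a median of 1.45. The part of these cell types in the members' differences was not tested, and in bulk RNA fewer cells of a type and less RNA per cell cannot be told apart.

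**Figure D4:**
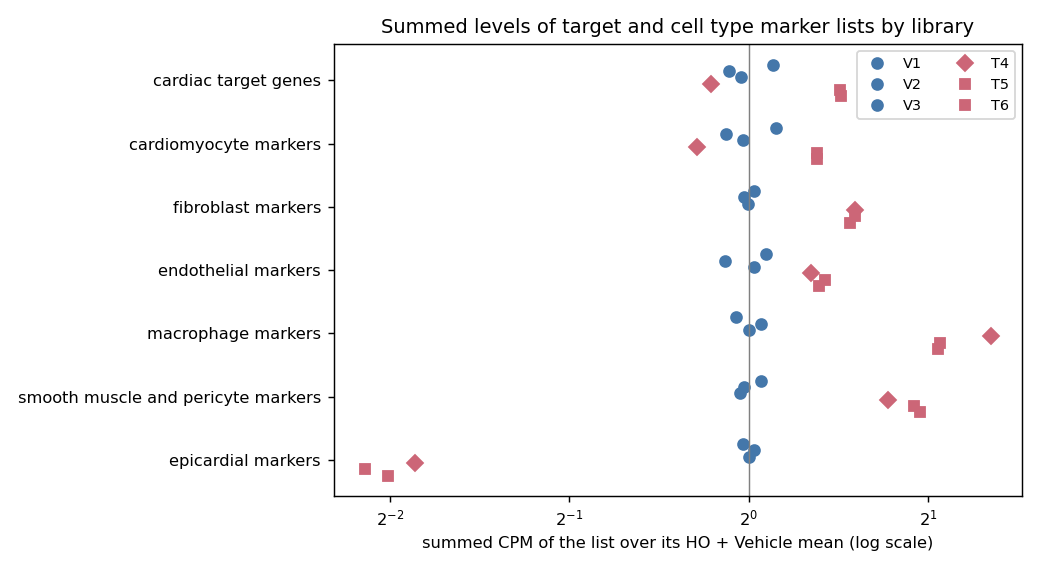
Summed CPM of each list relative to its HO + Vehicle mean (log axis, 2-fold steps) in each library; circles are V1 to V3, squares T5 and T6, the diamond T4. Of the lists plotted, the cardiac target genes and the cardiomyocyte markers have T4 below the HO + Vehicle libraries and T5 and T6 above. The fibroblast sum is 1.48 to 1.51 in all 3 HO + β-SITO libraries. The epicardial sum is 0.227 to 0.275 there, set mostly by Aldh1a2 (mean 841 CPM in HO + Vehicle, 84.9 in HO + β-SITO). Of the 10 epicardial markers, 8 were higher and 2 lower at an edgeR adjusted p under 0.05 alone (all tested genes: 33.0% and 33.8%).

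Set against the marker counts of its own library, each member was expressed per 10000 counts of the cardiomyocyte or fibroblast list, a scale chosen after the data were seen. Per cardiomyocyte marker counts, Mef2c was higher by 1.28 on the log2 scale, Tbx20 by 0.77 and Tbx5 by 0.45, with no overlap between groups. Nkx2-5 was 27.6, 28.7 and 25.3 in V1 to V3 and 14.1, 19.3 and 18.9 in T4 to T6, lower in all 3 HO + β-SITO libraries, with a log2 difference of -0.64. Gata4 (0.0084), Mef2a (0.022), Gata6 (0.15) and Hand2 (-0.21) overlapped, with T4 the highest HO + β-SITO library for all 4. Without T4, Gata4 (-0.17) and Hand2 (-0.44) were lower without overlap, Gata6 (-0.076) and Mef2a (-0.16) turned negative and overlapped, and Mef2c (1.05), Tbx20 (0.53), Tbx5 (0.44) and Nkx2-5 (-0.51) kept their direction without overlap. The fibroblast scale is set mostly by the same collagens. The fibroblast sum was 1.48 to 1.51 of its HO + Vehicle mean in T4 to T6. A gene with unchanged CPM would therefore lie below 0 on this scale. The same applies to the cardiomyocyte scale without T4, since that sum was 1.3 in T5 and in T6. The share of all genes higher or lower without overlap on either scale was not computed. The differences on these scales therefore cannot be set against a background of all genes. Per fibroblast marker counts, Mef2c (0.83) and Tbx20 (0.32) were still higher without overlap, Tbx5 (0.053) overlapped, and Gata4 (-0.43), Gata6 (-0.30), Mef2a (-0.41), Hand2 (-0.66) and Nkx2-5 (-0.99) were lower without overlap. Without T4, Tbx5 on this scale was higher without overlap (0.24), and the other 7 tested members kept their direction without overlap. Of the 8 tested members, Mef2c and Tbx20 were higher without overlap as CPM and on both of these scales with and without T4, and Tbx5 was so without T4 alone. These are descriptions with no test. No scale was made from the other marker lists. Their median log2 fold changes were 2.02 (endothelial), 1.45 (macrophage), 1.38 (smooth muscle and pericyte) and 0.63 (epicardial), against 1.41 for Mef2c and 0.91 for Tbx20 themselves.

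**Figure D5:**
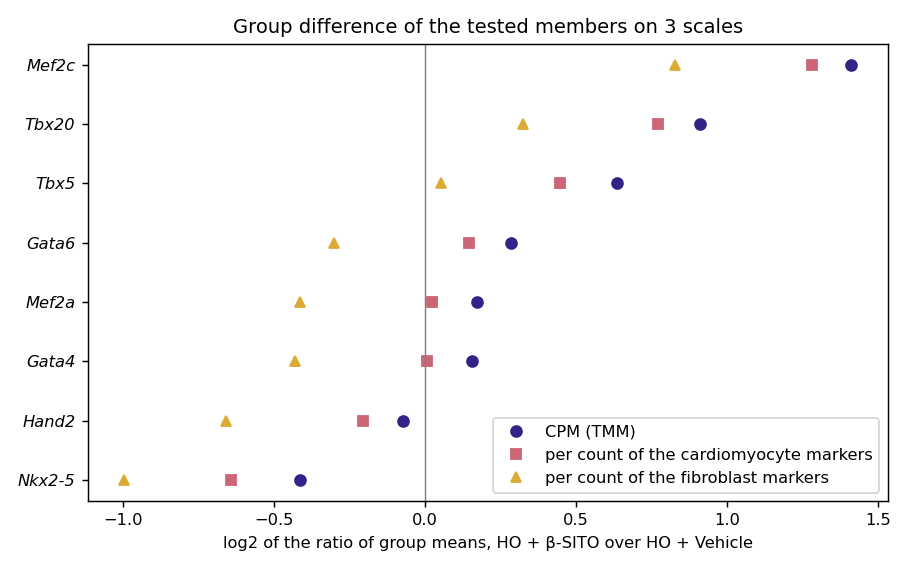
Log2 ratio of the group means, HO + β-SITO over HO + Vehicle, for the 8 tested members as CPM (circles), per count of the cardiomyocyte markers (squares) and per count of the fibroblast markers (triangles). Mef2c stays at or above 0.83 on all 3 scales, and Gata4, Gata6 and Mef2a lie above 0 as CPM and below 0 per fibroblast marker count. The fibroblast marker sum itself was higher in HO + β-SITO, which lowers every gene on that scale.

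The related genes of each family were read beside the members. Of 13 paralogs, 8 were tested, with 2 called higher and 2 lower (all tested genes: 12.8% and 10.1%) and a median log2 fold change of 0.18. Gata2 (1.01), a GATA factor of blood and endothelium, and Gata5 (1.80), an endocardial one, were called higher, and Gata3 (-1.56) and Tbx3 (-1.01), a repressor of the conduction system, were called lower (edgeR adjusted p = 0.000147, 0.00158, 6.77e-05 and 7.65e-05). Gata5 held 5, 3 and 4 counts in V1 to V3, near the floor of 3 counts, and 12, 19 and 19 in T4 to T6. Without T4, Tbx3 was at -0.88 and no longer past 2-fold. Gata2 also fell short of 2-fold, at 0.89, in the lowest of the fits that left out 1 library. Mef2d (0.22, adjusted p = 0.0124) and Tbx2 (0.43, adjusted p = 0.0188) passed the adjusted p alone in edgeR, Tbx18 (0.13, adjusted p = 0.101) and Tbx1 (-0.10, adjusted p = 0.821) did not, and Tbx4 was not tested.

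Of 27 tested factors of chambers and conduction, 7 were called higher and 1 lower, with a median log2 fold change of 0.29 (7 called higher and a median of 0.34 without T4). The shares of all tested genes were 12.8% called higher and 10.1% lower, and 13.2% higher without T4. Heyl rose from 1.59 ± 0.298 to 139 ± 7.01 CPM (SD, n = 3; edgeR log2 fold change 6.44, adjusted p = 2.15e-16) and Hey1 from 1.61 ± 0.706 to 18.2 ± 1.36 CPM (3.50, adjusted p = 2.52e-10); both encode bHLH repressors downstream of Notch. Sox4 (1.53) and Etv1 (1.11) rose and Prrx1 (-1.08), a mesenchymal homeobox gene, fell. Of 21 cofactors, 4 were called higher and 0 lower, with a median of 0.43: Nfatc2 (1.68), Nfatc4 (1.12), Nfatc1 (1.04), which encode calcineurin-dependent partners of GATA and MEF2 proteins, and Hdac7 (1.04), a class II deacetylase that binds MEF2. Without T4, 6 cofactors were called higher.

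Cardiac target genes of these factors included 35 tested genes, of which 8 were called higher and 0 lower (median log2 fold change 0.29). Over all tested genes, 12.8% were called higher and 10.1% lower. Myl7 (2.39) and Myl4 (1.86) encode atrial myosin light chains, Nppb (2.10) and Nppa (1.5) natriuretic peptides, and Myh7 (1.61) the slow myosin heavy chain. The spread in HO + β-SITO was large, as in Nppa at 416 ± 34.5 against 1174 ± 457 CPM (SD, n = 3), and T4 was the lowest HO + β-SITO library for 34 of the 35 genes. Without T4, 12 were called higher (all tested genes: 13.2%) and the median was 0.49.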

How the data were processed

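RNA was sequenced from 6 libraries of hypoxic NMCMs, 3 per group, and groups were taken from the sample labels. The authors deposited 1 table of raw counts per gene, not normalized. The submitters' processing notes name FastQC, HISAT2, featureCounts and the build GRCm39, with no versions. The library kit is named as ABclonal in the study's methods and as Illumina in the labels. Strand settings of the counting are not given in the sources used here, and no column held gene lengths, so lengths were matched by gene identifier to GENCODE vM21.

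From the deposited counts, genes were filtered by filterByExpr with a minimum count of 10, scaled by TMM and tested with edgeR 4.0.16 (R 4.3.3), with the group as the only term. Genes changed by more than 2-fold with an adjusted p under 0.05 were called. The study's tool was DESeq2, which was run as an alternative (1.42.0), as was limma-voom (3.58.1). Other normalizations, filters and leaving out each library were also tried. Ratios within libraries used exact permutation tests (scipy 1.17.1). The fold change fits were tested on simulated counts. Ratios, levels per length, marker scales and motif searches were not.

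All 10 members are reported. Genes within 5 kb of a member that held counts and could be tested are named, as are family paralogs whose mean reached 10 counts and, of each other list, up to 5 called genes with the largest rise or fall and a mean count of 100 or more. Genes at 0 in all libraries and Gm44667, with 3 to 6 counts, are the other neighbours. The members and lists were chosen with earlier results of these data known. Precision rests on 16694734 to 18460522 counts per library and on 3 libraries per group. Marker sums without the most abundant genes, and values per marker counts without T4, were added after the data were seen.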

Additional observations from a re-analysis of the deposited data

How the results depend on the processing

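The number of members called higher was 1 under DESeq2, limma-voom, the test against a 2-fold threshold, RLE size factors, both other filters, exclusion of mitochondrial genes and every left-out library, in each case Mef2c. It was 6 with no fold cutoff, 2 with the upper quartile and 2 with library size only, where Tbx20 joined. In the same order, 4885, 2257 and 2268 of all 14799 tested genes were called higher, against 1888 in the main fit. Under the upper quartile and library size only, the median log2 fold change of all genes was 0.14. Hand2 reversed to 0.071 with the upper quartile and 0.075 with library size only. Of 120 recomputed log2 fold changes of the 8 tested members, 104 kept their direction and side of the threshold. Of the others, 11 lost significance, 3 gained it and 2 reversed. Gata6, Tbx5 and Tbx20 each lost it in 1 setting, the test against a 2-fold threshold, which a change under 2-fold cannot pass. Gata4 and Mef2a lost it there and also with some libraries left out. The 3 gains were of Nkx2-5, with no filter on low counts (-0.41, adjusted p = 0.00138) and without T5 or T6. Mean HO + Vehicle levels by library size only were 62.2 CPM for Gata6, 332 for Tbx20, 121 for Mef2a and 45.4 for Hand2. Leaving out 1 library kept the log2 difference of the Gata4/Gata6 ratio between -0.17 and -0.09 and that of Tbx20/Tbx5 between 0.11 and 0.43. The ratios Hand2/Hand1 and Nkx2-5/Isl1 were not computed because a member held under 10 counts; with a pseudocount of 0.5 their log2 differences were -1.99 and -0.90 (exact permutation test, p = 0.2 and 0.4). No paired analysis was possible because the groups share no replicate numbers. Depth limits Hand1 and Isl1.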
